A study of Mus musculus with 4 samples.

Results

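Cadherins and protocadherins are calcium-dependent adhesion proteins of the cell surface. Classical cadherins (type I and type II) bind like partners on the neighbouring cell and connect to the actin cytoskeleton through catenins, and they are known for sorting neurons into layers and for matching the 2 sides of a synapse. Protocadherins of the delta group are single genes with weaker adhesion and their own cytoplasmic partners, whereas the alpha, beta and gamma protocadherins are encoded in gene clusters from which each neuron draws a few members, and they are known for letting neurites of 1 neuron recognise and avoid each other.

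The genes described here are those of the mouse cadherin (Cdh followed by a digit) and protocadherin (Pcdh) symbols that had at least 50 unique molecular identifiers (UMIs, each standing for 1 counted RNA molecule) summed over the excitatory neurons of the ventromedial prefrontal cortex (vmPFC). Of 92 matching symbols among 31053 genes listed, 76 reached that limit, as did 15248 genes in all. The members hold 492905 UMIs over 9368 neurons. Just above the limit were Pcdha3 with 50 UMIs, Pcdhgb2 with 53, and Pcdha7 and Pcdhb2 with 66 each. Just below it were Cdh5 with 44, Pcdhac1 with 43 and Pcdha1 with 40, and Cdh1, Cdh3, Cdh17 and Cdh26 had 0.

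The study asked which transcriptomes go with which axonal projections. Male C57BL/6 mice, 8 weeks old when injected, received retrograde AAV (rAAV2-retro) that carried EGFP and a target-specific barcode in 5 brain regions that the vmPFC innervates. They were the lateral hypothalamus (LH) and mediodorsal thalamus (MD), the agranular insular cortex (AI), the basolateral amygdala (BLA) and the dorsomedial striatum (DMS). All mice carried the virus, and no uninjected group was analysed here. There were 3 unsorted libraries, titled mouse 1, mouse 2 and mouse 3 (unsorted 1, 2 and 3 below), and 1 library for which EGFP-positive cells of 3 other mice were sorted and pooled (the sorted library), and whose neurons without a barcode UMI had still passed an EGFP gate.

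The libraries held 2816, 2486 and 2463 neurons in unsorted 1 to 3 and 1603 in the sorted library, with median depths of 21362, 22252, 23213 and 31670 UMIs per neuron. The deposited labels divided the neurons into 7 subtypes named for a layer and a gene: 357 L2/3-Calb1 and 689 L2/3-Rorb neurons, 1409 L5-S100b, 382 L5-Bcl6 and 321 L5-Htr2c neurons, and 5092 L6-Syt6 and 1118 L6-Npy neurons. Each naming gene was highest in its own subtype, from a CPM (its UMIs in each 1000000 UMIs of the summed counts) of 51.8 for S100b to 395 CPM for Htr2c, and the excitatory marker Slc17a7 was at 704 to 1255 CPM in every subtype. Between libraries, 16 neuron cell barcodes were shared. Because the tags come from the 3′ end of RNA, levels are given as CPM, without scaling by gene length, and are compared within a gene.

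Expression of the family was uneven. The 5 highest members, Pcdh17 (102538 UMIs), Pcdh10 (77759), Pcdh9 (67156), Cdh2 (38007) and Cdh13 (36331), held 65.3% of the members' UMIs. Only 10 members were seen in over 50% of neurons and 32 were seen in under 5%. Of the 76 members 50 belong to the gene clusters, and 26 do not.

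The first comparison was the level of each member across the 7 subtypes. The subtypes were clustered on the expression of these same neurons, so these levels are a description and no test was made. A member is called set apart when every unsorted library of 1 subtype lay above, or below, every library of the other 6. By that count 26 of 76 members were set apart, against 42.2% of all genes with at least 50 UMIs, and 19 were set apart high (31.0% of all genes) and 19 low (21.0%), 12 of them both. Among members with at least 500 UMIs the count was 25 of 46, against 48.6% of such genes. Of the 26 members outside the clusters 23 were set apart, and of the 50 clustered members 3 were. Clustered members were also scarcer: 2 of 11 alpha, 15 of 21 beta and 4 of 18 gamma members had at least 500 UMIs. Of the 11 type II cadherins, the largest group outside the clusters, 10 did. Among these, 0 alpha, 0 beta, 2 gamma and 9 type II members were set apart. The part of depth in this split was not tested.

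**Figure D1:**
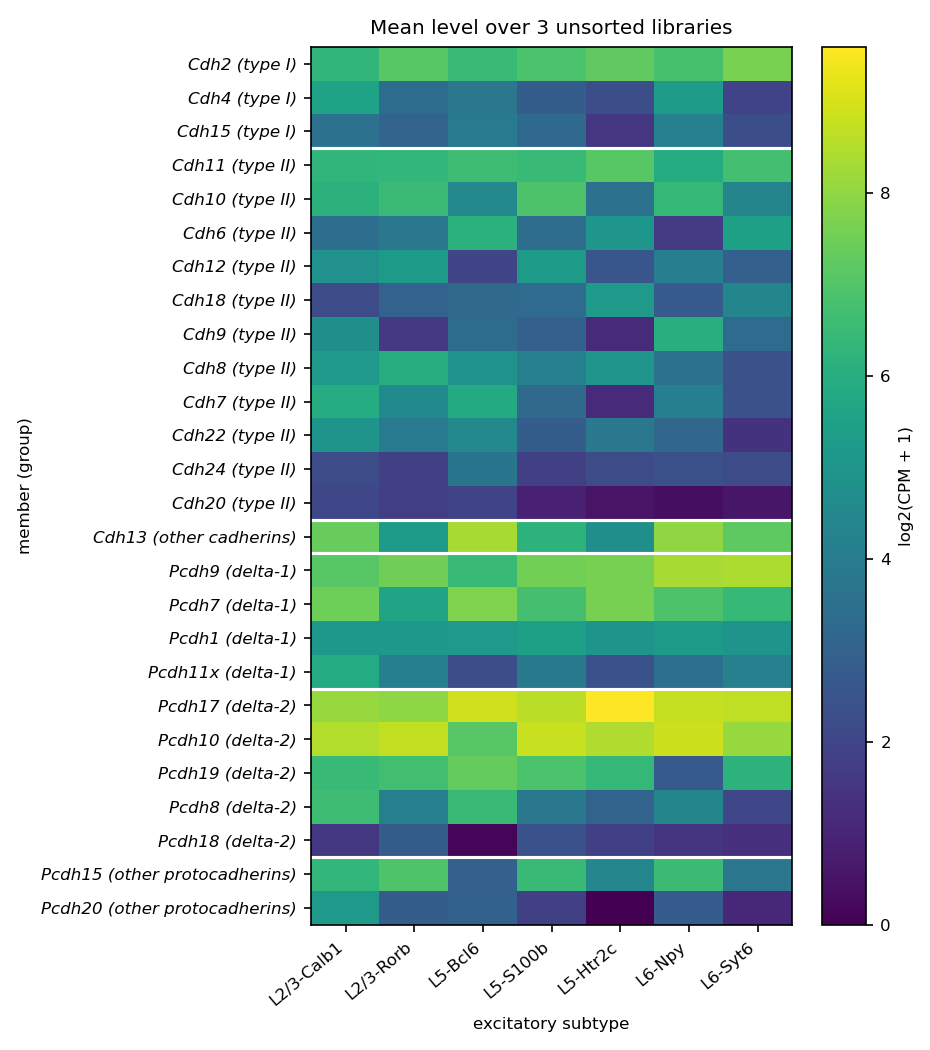
Mean level of the 26 members outside the gene clusters, as log2(CPM + 1) over the 3 unsorted libraries, for each of the 7 excitatory subtypes; white lines separate the groups of genes. Pcdh17, Pcdh10 and Pcdh9 are bright in most columns, while Pcdh20, Cdh9, Cdh7 and Pcdh8 change from bright to dark between subtypes.

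Type I cadherins were all set apart. Cdh2, or N-cadherin, the main classical cadherin of neurons, measured 201, 200 and 210 CPM in L6-Syt6 and 81.3, 71.3 and 81.8 CPM in L2/3-Calb1, the lowest of its subtype means. Cdh4, or R-cadherin, had a different order, with 50.4, 47.2 and 43.5 CPM in L2/3-Calb1, 42.0, 34.9 and 39.9 in L6-Npy and 3.22, 2.50 and 2.72 in L6-Syt6. The libraries of L2/3-Calb1 and L6-Npy lay above those of the remaining 5 subtypes, of which the highest mean was 13.0 ± 2.6 CPM (SD, n = 3) in L5-Bcl6. Cdh15, best known from muscle, was set apart low in L5-Htr2c at 1.87 ± 0.90 CPM.

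Type II cadherins, which form adhesive pairs among their own subgroups, had 9 of 11 members set apart, with every subtype other than L6-Syt6 holding the highest level of some member. Cdh9, known from synapses of hippocampal mossy fibres, was concentrated in L6-Npy at 62.9, 63.9 and 68.5 CPM and reached 0.582, 0.698 and 2.61 CPM in L5-Htr2c. The ratio of the highest to the lowest subtype mean, with the lower mean set to at least 1 CPM, was 50.2 for Cdh9, the largest among members that reached 20 CPM in some subtype. Cdh7 marked a pair of subtypes, L2/3-Calb1 with 45.8, 68.8 and 66.3 CPM and L5-Bcl6 with 59.3, 50.6 and 62.7, and those values overlapped. It fell to 1.16, 0.698 and 1.96 CPM in L5-Htr2c, a ratio of 47.4.

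Cdh6 was highest in L5-Bcl6 at 69.2, 72.3 and 68.1 CPM and lowest in L6-Npy at 1.72, 3.69 and 1.20 CPM, with L6-Syt6 and L5-Htr2c at 43.1 ± 1.9 and 31.7 ± 1.9 CPM between them. Cdh8, a cadherin of early regional patterning in cortex, was highest in L2/3-Rorb at 61.9, 60.7 and 65.2 CPM and lowest in L6-Syt6 at 4.07, 4.43 and 4.03. Cdh10 was highest in L5-S100b at 121, 114 and 121 CPM and lowest in L5-Htr2c at 8.73, 16.0 and 7.83. It was the only member set apart high in L5-S100b, and no member was set apart low there.

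Cdh18 and Cdh11 were highest in L5-Htr2c. The 3 libraries gave 29.1, 42.6 and 33.3 CPM of Cdh18 there and 3.60, 3.93 and 3.39 in L2/3-Calb1. For Cdh11, which changed least of the type II genes named here, they gave 141, 138 and 132 CPM in L5-Htr2c and 61.0, 59.6 and 55.3 in L6-Npy. Cdh22 was highest in L2/3-Calb1 at 29.3, 32.9 and 29.5 CPM and lowest in L6-Syt6 at 1.87, 1.56 and 1.42. Cdh12, a brain cadherin, was not set apart because its top subtypes overlapped: L5-S100b gave 39.2, 34.7 and 37.0 CPM and L2/3-Rorb gave 38.3, 32.7 and 37.7, against 3.07 ± 1.6 CPM in L5-Bcl6. Of the type II members 5 (Cdh6, Cdh9, Cdh10, Cdh12 and Cdh18) lie on chromosome 15 (GRCm38, between positions 13028701 and 23474418), and their highest subtypes were L5-Bcl6, L6-Npy, L5-S100b, L5-S100b and L5-Htr2c.

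Cdh13, or T-cadherin, which is held in the membrane by a lipid anchor and has no cytoplasmic tail, was the fifth most abundant member and spanned a ratio of 12.2. It measured 306, 349 and 306 CPM in L5-Bcl6, followed by L6-Npy at 261, 256 and 259, L2/3-Calb1 at 169, 157 and 162, L6-Syt6 at 147, 149 and 152 and L5-S100b at 74.4, 66.1 and 77.8. L2/3-Rorb with 32.0, 37.6 and 38.8 CPM and L5-Htr2c with 25.0, 30.0 and 23.5 closed the order. No neighbouring pair of subtypes in this order overlapped over the unsorted libraries.

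Delta-1 protocadherins, which bind protein phosphatase 1, differed in how far they varied. Pcdh1 ranged from 30.1 to 42.5 CPM in its subtype means and was not set apart. Pcdh9 was high in both layer 6 subtypes, with 341, 339 and 333 CPM in L6-Syt6 and 339, 319 and 311 in L6-Npy, and lowest in L5-Bcl6 at 97.4, 87.7 and 86.1. Pcdh7 was highest in L5-Bcl6 at 217, 191 and 234 CPM, where it overlapped L5-Htr2c at 195 ± 4.7, and lowest in L2/3-Rorb at 46.8, 50.8 and 43.8. Pcdh11x, an X-linked gene, reached 65.3, 57.5 and 53.7 CPM in L2/3-Calb1 and no more than 18.4 CPM in any unsorted library of another subtype. In the sorted library it was at 78.0 CPM in L2/3-Calb1 and 28.3 in L2/3-Rorb.

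All 5 delta-2 protocadherins were set apart. Several of them recruit the WAVE actin regulator. Pcdh17, the most abundant member, gave 735, 751 and 836 CPM in L5-Htr2c and 248, 259 and 241 in L2/3-Rorb. Pcdh10 gave 476, 468 and 442 CPM in L6-Npy and 150, 155 and 110 in L5-Bcl6, the subtype where it was set apart low. Pcdh19, the X-linked gene mutated in a childhood epilepsy, was at 162, 160 and 159 CPM in L5-Bcl6 and at 5.86, 5.72 and 5.31 CPM in L6-Npy. The other 5 subtypes lay between 72.7 and 118 CPM in their means. Pcdh8, an activity-induced protocadherin that takes cadherins off the synaptic surface, was high in the same pair as Cdh7: L2/3-Calb1 gave 99.8, 87.0 and 105 CPM and L5-Bcl6 gave 86.4, 88.5 and 93.3. In L6-Syt6 it was at 2.96, 3.27 and 3.09 CPM.

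Both remaining single protocadherins were set apart. Pcdh15, known from the tip links of inner-ear hair cells, was at 135, 112 and 124 CPM in L2/3-Rorb and at 7.54, 5.96 and 6.31 in L5-Bcl6. Pcdh20 was at 35.5, 36.4 and 32.9 CPM in L2/3-Calb1 and had 0 UMIs in L5-Htr2c in all 4 libraries. With the unsorted depths of L5-Htr2c, 3 UMIs would have been 1.75, 2.09 and 1.96 CPM, so in each unsorted library the level in L2/3-Calb1 was at least 16.8-fold higher than that floor.

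The sorted library stood apart from the unsorted ones, and sort, animals and library cannot be told apart with 1 sorted library. Of the 46 members with at least 500 UMIs, 17 to 30 lay above the range of the unsorted libraries and 4 to 13 below it, depending on the subtype, against 42.9 to 52.0% and 28.2 to 31.9% of all genes with as many UMIs. Cdh13 was higher in the sorted library in L5-Bcl6 (458 CPM), L6-Npy (387) and L5-S100b (125), whereas Cdh9 in L6-Npy (64.8) lay within the unsorted range. The highest of the 6 subtypes compared was the same in sorted and unsorted neurons for 27 of 46 members, and when the sorted library was required to lie apart as well, 18 of 76 members were set apart.

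The clustered protocadherins were seldom set apart. None of the 11 alpha and 21 beta members was set apart, and 3 of 18 gamma members were. Pcdhgc4, a gamma member with a known role in neuronal survival, gave 28.5, 26.5 and 28.1 CPM in L5-Htr2c against subtype means of 8.36 to 11.3 CPM elsewhere. Pcdhga12 was also set apart high in L5-Htr2c (25.2 ± 0.42 CPM), and Pcdhga5 was set apart low in L5-Bcl6 (0.292 ± 0.25 CPM). All alpha and all gamma members share the last 500 bases of their exons with the other members of their cluster in the annotation, so tags from the 3′ end can be split among them by the counting and single members of these clusters are uncertain. Of the 21 beta members 20 have no such overlap.

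The clusters were also summed over members, but alpha and gamma sums would still miss any tags from the shared bases that the counting left out. The gamma sum was 97.2, 90.7 and 87.4 CPM in L5-Htr2c and lowest in L5-S100b at 43.5 ± 2.00 CPM. Pcdhgc4 and Pcdhga12 contributed most of the L5-Htr2c sum. The beta sum ranged from 82.8 ± 3.46 CPM in L6-Npy and 84.1 ± 0.495 in L6-Syt6 to 115 ± 3.00 in L2/3-Rorb. Both layer 6 subtypes lay below the other 5 over the unsorted libraries. In the sorted library L6-Npy, at 97.3 CPM, lay above L5-Bcl6, at 94.8. The alpha sum ranged from 12.3 ± 0.526 CPM in L5-Bcl6 to 19.3 ± 0.853 in L5-Htr2c.

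**Figure D2:**
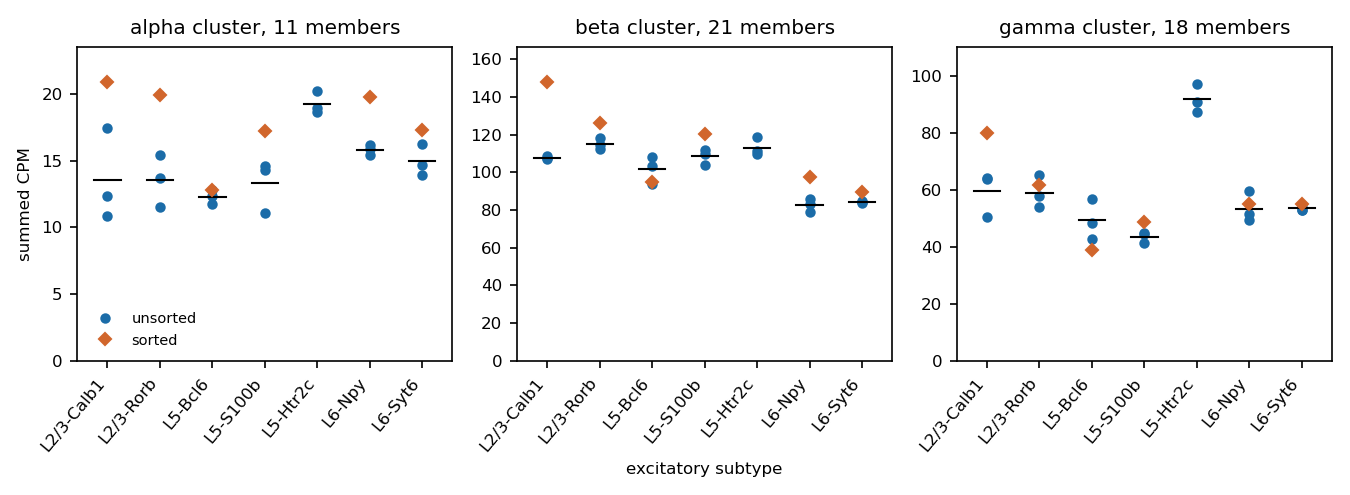
Summed CPM of the alpha, beta and gamma members by subtype, 1 point per library (circles unsorted, diamonds sorted, bars the unsorted mean; the 4 sorted L5-Htr2c neurons are left out). In the gamma panel the 3 unsorted L5-Htr2c libraries, at 87.4 to 97.2 CPM, lie above all other points.

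A single neuron showed few clustered members at this depth. The mean number of different clustered members with a UMI was 2.89, 2.91 and 3.03 per neuron in the unsorted libraries and 4.10 in the deeper sorted library, and the highest was 13. At least 1 beta member was seen in 77.5 to 87.1% of neurons by library, at least 1 gamma member in 65.1 to 79.9% and at least 1 alpha member in 24.8 to 41.4%. In each case the highest share was that of the sorted library, which also had the most UMIs per neuron, and the part of depth in these shares was not tested.

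The second comparison was made within subtypes, between neurons with 5 or more UMIs of the viral barcode feature in the RNA library (barcode-high) and neurons with 0 (barcode-zero). The feature is not split by target in the count tables, and whether it sums the 5 barcodes was not tested. Counts were summed per library and group and tested over all genes with edgeR, with the library as a block, and a call required both an adjusted p under 0.05 and a change of 0.5 or more on the log2 scale in either direction. Among barcode-zero neurons, those with other targets, those without virus and those whose barcode was missed cannot be told apart. The share of all genes at an unadjusted p under 0.05 is not given, so member counts at that p have no background. Levels of single genes in these 2 groups are CPM scaled by edgeR's size factors, in the order unsorted 1, 2, 3 and sorted. The comparison of barcode steps in L5-S100b is an exception.

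L5-S100b neurons showed the largest differences. Here 5 of 42 members tested were called, against 2.7% of 11477 genes: Cdh13, Cdh9 and Cdh7 were lower in barcode-high neurons, and Pcdh7 and Cdh6 were higher. The values of both groups did not overlap in 11 of 42 members, against 6.99% of all genes. All 5 called members lie outside the gene clusters, and 0 of the 18 clustered members tested were called by edgeR, with 1 of 18 at an unadjusted p under 0.05.

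Cdh13 (ENSMUSG00000031841, chromosome 8, 118283733 to 119324921, GRCm38) measured 50.5, 48.5, 51.0 and 75.7 CPM in barcode-high L5-S100b neurons and 148, 184, 158 and 248 CPM in barcode-zero neurons. Every barcode-high library lay below every barcode-zero library. The log2 fold change was −1.70 with a standard error of 0.0828 (edgeR adjusted p = 1.11e-15), the largest fall among the members in any contrast.

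Pcdh7 (ENSMUSG00000029108, chromosome 5, 57717967 to 58133230) moved the other way, at 144, 116, 111 and 144 CPM in barcode-high and 72.7, 58.9, 49.1 and 94.6 CPM in barcode-zero neurons. The groups did not overlap, and each library rose, for a log2 fold change of 0.93 with a standard error of 0.0963 (edgeR adjusted p = 7.73e-08).

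The 3 other called members were type II cadherins at lower levels. Cdh9 was at 5.91, 5.68, 4.69 and 5.79 CPM in barcode-high and 19.8, 10.9, 13.7 and 9.20 in barcode-zero neurons (log2 fold change −1.32, standard error 0.261, edgeR adjusted p = 0.00111). Cdh6 was at 12.4, 9.82, 12.2 and 12.0 CPM in barcode-high and 5.78, 5.46, 2.95 and 5.26 in barcode-zero neurons, the latter from 7, 5, 3 and 4 UMIs (1.25, standard error 0.300, edgeR adjusted p = 0.00747). Cdh7 was at 7.50, 9.82, 7.62 and 8.08 CPM in barcode-high and 15.7, 14.2, 12.8 and 13.1 in barcode-zero neurons (−0.77, standard error 0.232, edgeR adjusted p = 0.0406). In all 3 the groups did not overlap. The call of Cdh9 was lost without unsorted 1 (log2 fold change −1.09), that of Cdh6 without unsorted 3 (a log2 fold change of 1.05), and that of Cdh7 without any 1 of the 4 libraries (−0.65 without unsorted 1 to −0.86 without unsorted 2).

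Neurons with 1 to 4 barcode UMIs were in neither group. Levels by barcode step are CPM of the summed counts, without edgeR's size factors. In them Cdh13 averaged 164 ± 69.6 CPM (SD, n = 4), near the 187 ± 52.6 of barcode-zero neurons and above the 55.9 ± 14.4 of barcode-high neurons. Pcdh7 averaged 70.8 CPM in them, against 69.8 at 0 UMIs and 127 at 5 or more. Cdh6 averaged 4.90, 6.19 and 11.4 CPM over the 3 steps, with the middle step between the others in all 4 libraries. Cdh9 averaged 13.5, 9.39 and 5.45 CPM, and Cdh7 14.0, 10.2 and 8.14. The middle step lay between the others in 3 of 4 libraries for Cdh13, 3 for Cdh9, 2 for Pcdh7 and 1 for Cdh7.

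**Figure D3:**
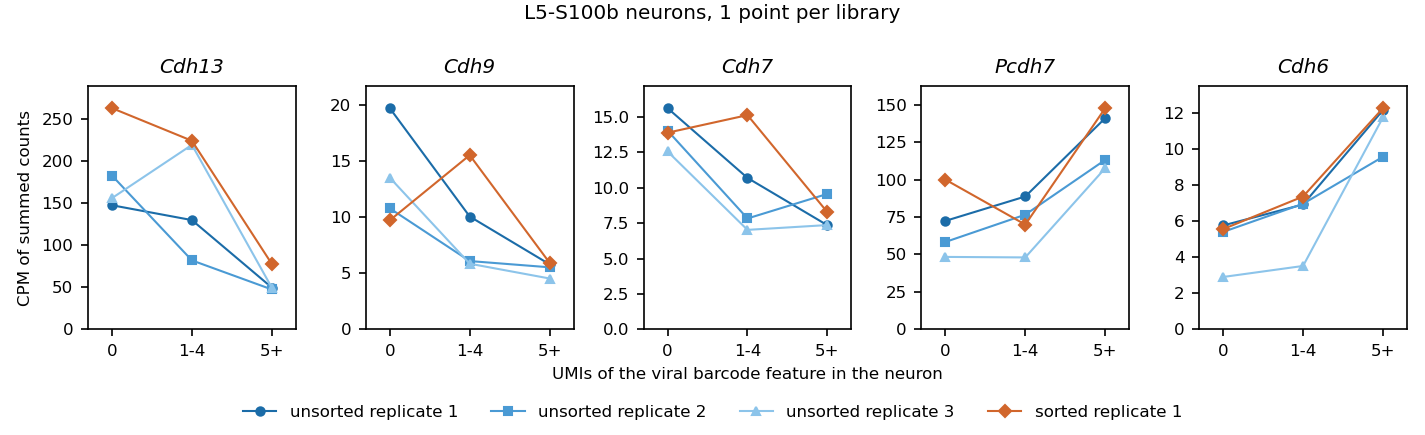
CPM of the summed counts, without edgeR's size factors, of the 5 called members in L5-S100b neurons with 0, 1 to 4, and 5 or more UMIs of the viral barcode feature, 1 line per library. In all 4 libraries Cdh13 ends lowest at 5 or more UMIs, while Pcdh7 and Cdh6 end highest.

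Cdh6 and Cdh9, which moved in opposite directions in L5-S100b, both lie on chromosome 15 and have a start site among the RefSeq promoter windows (GRCm38.p6, 250 bases before to 50 after each start; 20 members have one). Of the 4 called members with a window, compared in 6 pairs, this pair shared the longest identical run, 15 bases, against 9 to 11 in the other pairs. The run occurs on either strand in 2 of 32851 windows (0.00609%). The stretches below are shown because they hold that run, in capitals, and were chosen after the values were seen. The first is chr15:13173676-13173795 on the minus strand, with the run 18 to 4 bases before the start of Cdh6. The second is chr15:16728665-16728784 on the plus strand, with the run 209 to 195 bases before the RefSeq start of Cdh9. The GENCODE start of Cdh9, at 16728756, lies inside that stretch. The match is a description of the letters only.
Cdh6: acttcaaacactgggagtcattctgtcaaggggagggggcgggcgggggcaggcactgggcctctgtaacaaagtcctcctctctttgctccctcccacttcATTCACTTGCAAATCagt
Cdh9: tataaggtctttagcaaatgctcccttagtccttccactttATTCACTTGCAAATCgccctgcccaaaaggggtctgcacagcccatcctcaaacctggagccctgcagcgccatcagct

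Of the other members 5 passed the adjusted p in L5-S100b with a smaller change. Pcdh19 rose by 0.34 on the log2 scale (edgeR adjusted p = 0.0118). Pcdh15 fell by 0.36 (0.0067), Cdh2 fell by 0.27 (0.0413), Pcdh9 fell by 0.23 (0.0476) and Pcdh17 fell by 0.20 (0.0336). Over the 42 members tested the median log2 fold change was −0.07, and 45.2% were above 0, against 49.4% of all genes tested.

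Marker genes of other subtypes moved in the same contrast. Barcode-high L5-S100b neurons had less Cux2 (2.62 against 12.0 CPM), Calb1 (6.54 against 13.8), Bcl6 (3.59 against 8.24) and Npy (3.20 against 7.39), and more S100b (57.9 against 27.3), all called. Depth moved too, with medians of 25554, 27502, 29004 and 34389 UMIs in barcode-high and 19307, 23544, 22674 and 28185 in barcode-zero neurons. In an alternative chosen after seeing the data, neurons with any UMI of those 4 lower markers were left out, which kept 71.9 to 74.8% of barcode-high and 45.8 to 68.5% of barcode-zero neurons by library. Cdh13 (−1.68, edgeR adjusted p = 0.000121) and Pcdh7 (0.72, edgeR adjusted p = 0.00548) were still called there. Cdh9 (−1.41, edgeR adjusted p = 0.137), Cdh6 (1.01, edgeR adjusted p = 0.305) and Cdh7 (−0.63, edgeR adjusted p = 0.566) were not. Among neurons of 15000 to 35000 UMIs, 4 members were called, all but Cdh7.

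In L6-Syt6, the largest subtype, 3 of 63 members tested were called, against 1.67% of 13030 genes. Pcdh11x (ENSMUSG00000034755, chromosome X, 120290259 to 120910619) was at 11.2, 13.8, 10.7 and 8.89 CPM in barcode-high and 20.2, 20.8, 19.4 and 24.0 in barcode-zero neurons. The groups did not overlap, and the log2 fold change was −0.87 with a standard error of 0.114 (edgeR adjusted p = 0.00452). Cdh12 was higher, at 7.30, 9.44, 9.11 and 8.60 CPM in barcode-high and 6.29, 5.86, 5.49 and 6.77 in barcode-zero neurons (0.52, standard error 0.125, edgeR adjusted p = 0.0381). Cdh24 was lower, at 2.79, 2.31, 3.07 and 3.31 CPM against 4.26, 3.29, 4.63 and 5.75, with overlapping groups (−0.62, standard error 0.149, edgeR adjusted p = 0.0387). The calls of Cdh12 and Cdh24 were lost when any 1 of the 3 unsorted libraries was left out, and both were lost among neurons without UMIs of the markers described next. That of Cdh12 was also lost among neurons of 15000 to 35000 UMIs. Median depths were 24582, 25368, 25878.5 and 38604 UMIs in barcode-high and 21684, 21786, 23159 and 30096.5 in barcode-zero neurons.

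Most members leaned lower in barcode-high L6-Syt6 neurons, with 18 of 63 log2 fold changes above 0 (28.6%, against 48.7% of all genes tested) and a median of −0.16 against −0.01 over all genes. The groups did not overlap for 7 of 63 members, against 10.4% of all genes, a share near that background. Pcdh17 passed the adjusted p with a fall by 0.28 on the log2 scale (edgeR adjusted p = 0.0137), at 388, 360, 378 and 520 CPM against 440, 454, 456 and 651. Of the marker genes, Rgs5 of mural cells was lower in barcode-high neurons (8.07 against 24.1 CPM), as was Etv1 (33.7 against 48.7), whereas Rorb was higher (3.98 against 2.63). The summed mural list of 4 genes was at 6.25 to 11.1 CPM in barcode-high and 23.9 to 35.3 in barcode-zero neurons, against 1075 to 1188 in cells outside the deposited neurons, and its part in the members' values was not tested. Without neurons that held a UMI of Rgs5 or Etv1, also an alternative chosen after seeing the data, Pcdh11x was still called (−0.70, edgeR adjusted p = 0.00777). Cdh12 (0.52, edgeR adjusted p = 0.124) and Cdh24 (−0.61, edgeR adjusted p = 0.194) were not.

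In L2/3-Rorb 1 of 32 members tested was called, against 0.139% of 10038 genes. It was again Pcdh7, at 57.0, 59.5, 50.1 and 61.2 CPM in barcode-high and 25.2, 41.9, 23.6 and 33.7 in barcode-zero neurons (log2 fold change 0.88, standard error 0.163, edgeR adjusted p = 0.00142). The call was lost without unsorted 1 (0.77) and with DESeq2 (0.89). Pcdh19 passed the adjusted p with a smaller rise (0.41, standard error 0.102, edgeR adjusted p = 0.0495), at 118, 108, 120 and 133 CPM against 92.2, 87.8, 83.5 and 92.2. Etv1 was called higher in the same contrast (93.4 against 50.8 CPM). The beta member Pcdhb19 had the next smallest p (−0.83, edgeR adjusted p = 0.387).

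No member was called in the other 3 subtypes tested. In L6-Npy edgeR called 0 of 33 members and 0.801% of 10365 genes, with 4 members at an unadjusted p under 0.05, and DESeq2 called 0. Cdh13 was at 257, 261, 249 and 365 CPM in barcode-high and 304, 289, 296 and 406 in barcode-zero L6-Npy neurons, lower in all 4 libraries by a small step (−0.19, edgeR adjusted p = 0.0535). Pcdh17 (−0.16, edgeR adjusted p = 0.0785) and Pcdh8 (−0.53, edgeR adjusted p = 0.239) followed.

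In L2/3-Calb1 only the 3 unsorted libraries had enough neurons. There edgeR called 0 of 23 members and 0.18% of 8340 genes, with 6 members at an unadjusted p under 0.05, and DESeq2 called 0. Pcdh20, a gene of this subtype, was at 21.9, 24.4 and 27.0 CPM in barcode-high and 48.1, 40.2 and 42.4 in barcode-zero neurons (−0.82, edgeR adjusted p = 0.322). Cdh4 was at 40.2, 33.8 and 33.8 CPM against 62.7, 53.3 and 49.7 (−0.62, edgeR adjusted p = 0.56), and Cdh13 at 119, 113 and 157 against 190, 168 and 184 (−0.48, edgeR adjusted p = 0.227). In all 3 genes the adjusted p missed the threshold. In L5-Bcl6, also with 3 libraries, edgeR called 0 of 20 members and 0.0686% of 8752 genes, with 2 members at an unadjusted p under 0.05, and DESeq2 called 0. The smallest p values there were those of Pcdh7 (−0.33, edgeR adjusted p = 0.558), Pcdh10 (0.46, edgeR adjusted p = 0.613) and Cdh13 (−0.18, edgeR adjusted p = 0.771). L5-Htr2c held too few barcode-high neurons for a test.

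Whether the barcode difference itself changed with the subtype was tested by the interaction over the 4 subtypes that had both groups in all 4 libraries. By edgeR 7 of 45 members tested passed an adjusted p under 0.05, against 7.36% of 12081 genes. For Cdh13 (edgeR adjusted p = 3.56e-13) the log2 fold changes of this fit were −1.70 for L5-S100b and −0.36 for L2/3-Rorb, and 0.16 for L6-Syt6 and −0.19 for L6-Npy. For Pcdh7 (edgeR adjusted p = 1.76e-06) they were 0.94, 0.90, 0.02 and 0.08 in the same order, so that the rise was present in L5-S100b and L2/3-Rorb and near 0 in both layer 6 subtypes. For Pcdh11x (edgeR adjusted p = 0.00895) they were 0.15, −0.36, −0.86 and 0.23.

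Cdh9 (edgeR adjusted p = 0.00801) and Cdh6 (edgeR adjusted p = 0.0311) differed mainly through L5-S100b, with −1.32 and 1.26 there and values between −0.41 and 0.39 elsewhere. Cdh11 (edgeR adjusted p = 0.0102), at 0.30, 0.19, −0.15 and 0.02, and Pcdh15 (edgeR adjusted p = 0.0427), at −0.35, 0.20, −0.31 and −0.03, passed with small changes, none of which was called within a subtype.

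**Figure D4:**
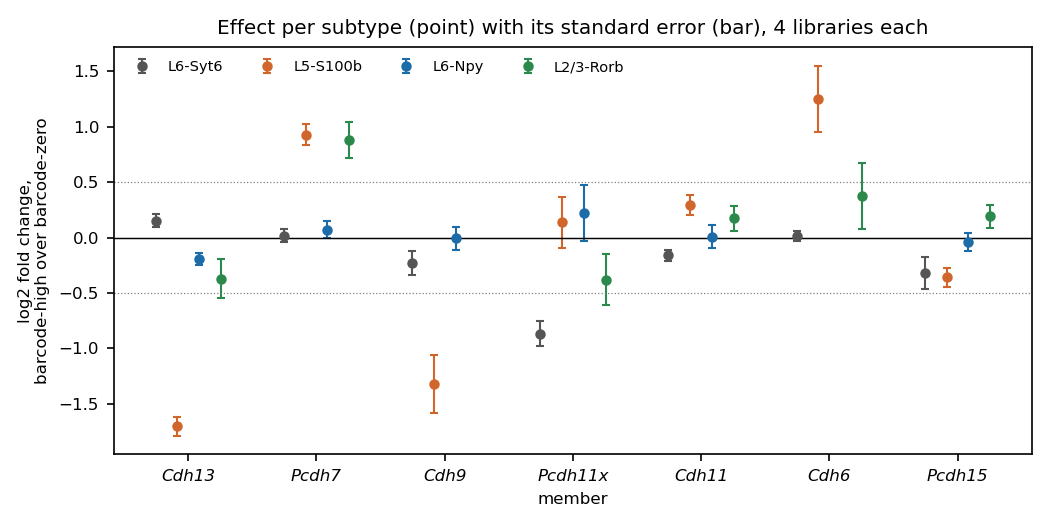
Log2 fold change of barcode-high over barcode-zero neurons (points) with its standard error (bars) from the separate fit of each subtype, for the 7 members whose barcode difference varied among 4 subtypes; dotted lines mark the size needed for a call, and a point is missing where the member was too low to be tested. Cdh13 and Cdh9 lie far below 0 in L5-S100b, and Pcdh7 lies near 0.9 in L5-S100b and L2/3-Rorb.

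Genes that work with cadherins were read in the same fits. Of 37 listed catenins, other cadherin-superfamily genes, actin regulators of the WAVE complex, proteases and chromatin factors of the gene clusters, 25 to 31 were tested per subtype and 0 were called by edgeR in any of the 6 contrasts. An unadjusted p under 0.05 was reached by 9 of 28 in L5-S100b and by 1 to 4 genes in each of the others. The share of all genes at that p is not given, so these counts have no background. In L5-S100b the adjusted p was passed, with changes under the size limit, by the giant cadherin Fat3 (0.39, edgeR adjusted p = 0.00247), the WAVE complex gene Cyfip2 (0.21, edgeR adjusted p = 0.00457) and the calsyntenin Clstn1 (0.17, edgeR adjusted p = 0.0177).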

How the data were processed

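The authors dissociated prelimbic and infralimbic tissue and made 10x Genomics 3′ libraries. They deposited raw UMI counts per gene and cell barcode (Cell Ranger 3.0.2 in the matrix header, genome mm10) and a table of neurons with the library, the subtype and the percent of mitochondrial UMIs, made per the submitters' notes with Seurat 3.1.4. The authors treated cells with over 8000 genes or 60000 UMIs as potential doublets and left them out, and no doublet caller was run here. Symbols and positions come from the files and GENCODE M21 (GRCm38). All 4 libraries were used. Summed counts per library and subtype gave CPM. Counts per library, subtype and barcode group were tested over all genes with edgeR 4.0.16 (quasi-likelihood F test, filterByExpr, TMM, R 4.3.3), with the viral feature left out of library sizes, at least 10 neurons per group and Benjamini-Hochberg adjustment over all genes tested. Both groups came from the same library, which was the block, and the replicate numbers come from the mouse titles of the labels. DESeq2 1.42.0, RLE size factors, no filter, 1 or more barcode UMIs, neurons of 15000 to 35000 UMIs, no block and leaving out each library were alternatives. The scripts were tested on simulated data.

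The members, gene lists and tests were chosen with earlier results of these data known. For subtype levels, the named genes are the 20 members with the largest ratio of subtype means among those reaching 20 CPM and the 5 most abundant. For contrasts they are those called, or the 3 with the smallest p. For the interaction and the partner list they are those under the threshold, and at the 50-UMI limit the 3 on either side. The less varied members, Cdh15, Pcdh1, Pcdhga5 and Pcdhga12, the 5 members and the 3 partners with changes under the size limit, and the shared run of bases were chosen after their values were seen. Pcdha11 is carried by 2 identifiers, counted separately. Totals per library were 54749198 to 87841541 UMIs. With the library as block, p-values weigh the difference between barcode groups against its variation from library to library. The fits used 4 libraries, or 3 in L2/3-Calb1 and L5-Bcl6, and the sorted library pools 3 mice.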

Additional observations from a re-analysis of the deposited data

Results flagged for a closer look

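In 5 of 28 groups of 4 libraries tested, 1 library lay far from the other 3 (its gap over the range exceeded Dixon's 95% value of 0.829, which chance gives in about 1 group in 20). The sorted library was the far one in 4 of them: Cdh13 was at 75.7 CPM in barcode-high L5-S100b neurons (others 48.5 to 51.0), at 365 in barcode-high L6-Npy neurons (others 249 to 261) and at 406 in barcode-zero L6-Npy neurons (others 289 to 304), and Pcdh17 was at 700.3 in barcode-high L6-Npy neurons (others 408 to 438). Cdh6 in barcode-high L5-S100b neurons was lowest in unsorted 2 at 9.82 CPM (others 12.0 to 12.4). Without the sorted library Cdh13 was still called in L5-S100b.

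For 7 members the barcode difference varied among 4 subtypes (L2/3-Rorb, L5-S100b, L6-Npy, L6-Syt6) by edgeR's interaction test: Cdh13 (adjusted p = 3.56e-13), Pcdh7 (1.76e-06), Cdh9 (0.00801), Pcdh11x (0.00895), Cdh11 (0.0102), Cdh6 (0.0311) and Pcdh15 (0.0427).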

How the results depend on the processing

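For the 20 contrast values of named members, all 202 values under the alternatives kept their direction. Of the values of members called in the main fit, 34 no longer passed the threshold. The values of members not called there had no call to lose, and 0 of them gained one. Members set apart by subtype were 26, and 35 to 41 when 1 unsorted library was left out, which leaves fewer values that must not overlap. The 3 members called in L6-Syt6 became 1 with DESeq2, 0 with 1 or more barcode UMIs and 2 among neurons of 15000 to 35000 UMIs. They became 1 without neurons holding the lower markers and 1 to 4 when 1 library was left out. The 5 in L5-S100b became 3 with DESeq2, 2 without neurons holding the lower markers and 3 to 4 when 1 library was left out. The 1 in L2/3-Rorb became 0 with DESeq2 and 0 to 1 when 1 library was left out. The 7 members of the interaction became 2 with 1 or more barcode UMIs and 4 to 8 when 1 library was left out. Without the library as replicate block, so without pairing the groups of a library, 1 member was called in L6-Syt6, 3 in L5-S100b and 0 in L2/3-Rorb. Cdh13 and Pcdh7 in L5-S100b were called in all 11 alternatives run (−1.75 to −1.31 and 0.72 to 1.15), and Pcdh11x in L6-Syt6 in 10 of 11, the exception being 1 or more barcode UMIs (−0.43). No member was called in L6-Npy, L2/3-Calb1 or L5-Bcl6 under the alternatives run. The causes of these changes were not tested.

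Depth limits the rarer members: 32 were seen in under 5% of neurons, and 20 to 63 of the 76 were high enough to be tested in a contrast. The small barcode-zero groups of L5-S100b (24 to 74 neurons per library) limit Cdh6, Cdh7 and Cdh9. Barcode groups were defined by RNA counts of a viral feature, which moves with depth, and no uninjected group was analysed here, so the virus and the projection cannot be told apart.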

Other observations

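Some genes of the family that were low in excitatory neurons were higher in the remaining cells of the same libraries, those that passed the study's limits on genes, UMIs and mitochondrial share but were not among the deposited neurons. These cells were not divided by type, and no test was made. Cdh5, or VE-cadherin, the junction cadherin of endothelium, was at 78.4 ± 0.789 CPM in them (SD, n = 3 unsorted libraries) and at 0.250 ± 0.127 in neurons, where it missed the limit of 50 UMIs. Cdh19 was at 8.37 ± 0.534 against 0.0572 ± 0.0399 CPM, Cdh20 at 10.2 ± 0.938 against 0.870 ± 0.165, and Pcdh18 at 25.6 ± 0.717 against 2.28 ± 0.306. Other low members were lower outside the neurons, such as Cdh15 at 2.03 against 6.91 CPM and Cdh22 at 3.55 against 6.07. The genes of these paragraphs were chosen after their values were seen.

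Some members that varied between excitatory subtypes were also higher outside the neurons, over the unsorted libraries. Neurons as a whole were mainly L6-Syt6 (5092 of 9368). Pcdh20 was at 16.8 ± 1.64 CPM against 3.54 ± 0.191 in neurons as a whole, Pcdh8 at 43.4 ± 2.29 against 14.3 ± 0.425, Pcdh11x at 41.3 ± 2.39 against 16.7 ± 1.12 and Pcdh15 at 98.2 ± 4.75 against 43.0 ± 1.66. In its highest subtype each of these genes lay above the cells outside the neurons, by the unsorted levels given earlier. Among abundant members, Pcdh17 and Cdh13 went the other way, with Pcdh17 at 198 ± 5.80 against 407 ± 1.24 CPM and Cdh13 at 67.9 ± 3.85 against 144 ± 1.56.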
